A study of Mus musculus with 14 samples.

Results

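The insulin-like growth factor (IGF) genes of Ocy454 cells were followed in 2 RNA-sequencing experiments: the ligands Igf1 and Igf2, the receptors Igf1r and Igf2r, and the binding proteins Igfbp2, Igfbp3, Igfbp4, Igfbp5, Igfbp6 and Igfbp7. These 10 genes were chosen by name, with earlier results of these data known. Each was found once among the 39179 genes of the differentiation table and once among the 35886 genes of the sorted libraries. Ocy454 is a mouse osteocyte-like line, immortalized by a large T antigen that works at the lower temperature, so cells divide at 33 °C and differentiate after transfer to 37 °C. All 14 libraries came from this 1 unmodified line, made from polyA RNA. For differentiation, 8 libraries were made from cells held at 37 °C for 1, 7, 10 or 14 days, with 2 biological replicates per day. For the sort, 6 libraries were made after 17 days at 37 °C from live cells labelled with a CD61-PE antibody, 3 from the 10% with the lowest signal (CD61low) and 3 from the 10% with the highest (CD61high). CD61 is integrin beta-3, the product of Itgb3. RNA of the 2 experiments was extracted with different kits and the files were made by different tools, so levels are compared within an experiment only.

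IGF1 and IGF2 are secreted growth factors that signal through the IGF1 receptor, a tyrosine kinase upstream of PI3K and AKT. The IGF2 receptor, which is also the cation-independent mannose 6-phosphate receptor, takes up IGF2 for degradation. Binding proteins hold the ligands in serum and tissue, and proteases such as PAPP-A release them by cutting a binding protein. Bone matrix is known as a rich store of IGF1, IGF2 and their binding proteins, and IGF1 made by bone cells acts locally on bone formation.

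Coordinates are given in the GRCm39 build with the GENCODE M39 annotation. Igf1 lies at chr10:87693642-87772904 on the plus strand and Igf2 at chr7:142204503-142220694 on the minus strand. Igf1r lies at chr7:67601518-67883416 on the plus strand and Igf2r at chr17:12901293-12988614 on the minus strand. Igfbp2 (chr1:72863606-72891634, plus) and Igfbp5 (chr1:72897091-72914043, minus) are neighbours whose 3′ ends face each other across 5456 bases. The others are Igfbp3 (chr11:7156086-7164179, minus), Igfbp4 (chr11:98932064-98945218, plus), Igfbp6 (chr15:102052697-102057953, plus) and Igfbp7 (chr5:77493130-77555931, minus).

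Transcript estimates exist for the sorted cells only, and they place most reads of each expressed member on 1 transcript. Igf2-201, a coding transcript that starts at 142211233, held 96.5% ± 3.32 (SD, n = 3) of the Igf2 counts in CD61low cells and 93.1% ± 2.64 (SD, n = 3) in CD61high cells. The 3 coding Igf2 transcripts with starts further upstream than Igf2-204 held 0 of 5114 estimated counts, which allows a share of up to 0.0587% (counting error only). Igf1-202 held 75.9% ± 10.5 (SD, n = 3) of the few Igf1 counts in CD61low cells. Igf1r-201, Igf2r-201, Igfbp2-201, Igfbp5-201, Igfbp6-201 and Igfbp7-201 each held nearly all of their gene's counts, from 99.5% for Igfbp7-201 up to all counts for Igfbp2-201 and Igfbp6-201, over all 6 libraries. Igfbp4 was the exception, with 84.2% on Igfbp4-201 and 13.2% on Igfbp4-203, a transcript with no defined coding sequence. Its Igfbp4-201 share was 84.1% ± 1.85 (SD, n = 3) in CD61low and 84.6% ± 3.84 (SD, n = 3) in CD61high cells, a difference smaller than the spread.

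The 200 bases before the annotated start of that main transcript are shown for 4 members, the 2 ligands and the binding proteins Igfbp2 and Igfbp4, the latter being the binding proteins with the largest called change between neighbouring days and at day 14 against day 1. They read 5′ to 3′ on the strand of the gene, ending at the base before the start, and capitals mark a match to a searched motif. Their positions are chr10:87694709-87694908 (plus) for Igf1, chr7:142211234-142211433 (minus) for Igf2, chr1:72863449-72863648 (plus) for Igfbp2 and chr11:98931864-98932063 (plus) for Igfbp4.
Igf1: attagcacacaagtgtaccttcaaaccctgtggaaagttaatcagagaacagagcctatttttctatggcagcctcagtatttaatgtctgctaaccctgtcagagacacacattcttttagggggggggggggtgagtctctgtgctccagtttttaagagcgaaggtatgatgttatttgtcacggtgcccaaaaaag
Igf2: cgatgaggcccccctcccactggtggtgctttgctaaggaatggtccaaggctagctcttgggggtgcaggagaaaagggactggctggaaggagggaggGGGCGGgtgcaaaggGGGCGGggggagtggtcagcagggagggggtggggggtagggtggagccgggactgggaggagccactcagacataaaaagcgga
Igfbp2: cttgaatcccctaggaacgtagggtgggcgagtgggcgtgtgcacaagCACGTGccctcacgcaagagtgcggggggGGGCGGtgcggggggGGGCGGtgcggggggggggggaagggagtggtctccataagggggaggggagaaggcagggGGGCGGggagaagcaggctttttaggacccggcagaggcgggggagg
Igfbp4: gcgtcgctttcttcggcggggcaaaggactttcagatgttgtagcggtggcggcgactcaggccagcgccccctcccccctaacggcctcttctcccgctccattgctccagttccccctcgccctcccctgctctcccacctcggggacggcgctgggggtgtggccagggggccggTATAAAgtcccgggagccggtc

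The 6 motifs, sought on both strands with no overlap between them, were the TATA box TATAAA, the CCAAT box, the GC box GGGCGG, the E-box CACGTG, the cAMP response element TGACGTCA and the AP-1 element TGACTCA. The Igf1 window is poor in CpG, with 2 CpG dinucleotides and a GC content of 44.5%, and matched none of the motifs. Across 21770 windows before canonical coding transcripts the median was 7 CpG dinucleotides and a GC content of 54.5%. The Igf2 window holds GC boxes from 100 to 95 and from 85 to 80 bases before the start. The Igfbp2 window holds GC boxes 123, 108 and 47 bases before the start and an E-box from 152 to 147 bases before it. The Igfbp4 window holds the TATAAA motif from 22 to 17 bases before the start. A GC box was matched in 5 of the 9 members' windows and in 34.8% of all windows, an E-box in 2 and 5.43%, TATAAA in 1 and 9.57%, and CCAAT in 1 and 32.3%. TGACGTCA (1.59% of all windows) and TGACTCA (3.22%) were in none of the 9. A match describes the sequence alone, and the starts are those of the annotation.

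The differentiation libraries held 27518605 to 34311238 reads and the sorted libraries 18815602 to 19220064 estimated counts. Calls, higher or lower, use thresholds given below, passed by 13.4% of all genes at day 14 against day 1 and 9.22% in the sort. Of 5 osteocyte markers, 3 were called higher at day 14 and the same 3 in CD61high cells. Dmp1, a matrix protein of osteocytes, went from 0.959 ± 0.0627 CPM on day 1 to 54.9 ± 3.93 CPM on day 14 (SD, n = 2), and Phex and Sost were called higher as well. In the sort Itgb3 was higher in CD61high cells by 4.30 on the log2 scale, with Dmp1, Phex and Sost also called, though Sost (1.20) was 0.90 and not called under library size scaling. Pdpn, an early osteocyte marker, lay lower, by -0.53 at day 14 and -0.48 in the sort, neither called, and Mepe was at 0.472 CPM or less in every library. Of 6 osteoblast markers 4 were called higher at day 14 and all 6 in CD61high cells. Over time their sum did not rise, at 35609 to 35663 CPM on day 1 and 29555 to 34732 CPM on day 14. Col1a1, the most abundant of them, differed by -0.47 at day 14 and was not called. In the sort they summed to 17650 to 21581 in CD61low and 50179 to 52888 TMM-normalized CPM in CD61high libraries. Of 5 macrophage markers only Cd68 reached 1 CPM in any group, with Adgre1 (an older symbol in the differentiation table, matched by gene ID) at 0 in all 14 libraries, and no endothelial or adipocyte marker of 4 each reached it. Cd68 was called higher at day 10 against day 1 (1.08) and against day 7 (1.07). It was not called at day 14 against day 1 (0.71) or in the sort (-0.81). Muscle markers summed to 2.57 to 3.04 CPM on day 1 and 25.6 to 29.4 CPM on day 14, with Myog at 0 in every library and Des and Acta1 called higher. Chondrocyte markers summed to 37.4 to 47.1 TMM-normalized CPM in CD61low and 96.4 to 113.1 in CD61high libraries, with Col2a1 and Sox9 called higher. The part of these cell markers in the results was not tested, and fewer cells of a type and less RNA per cell cannot be told apart in bulk libraries.

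Over differentiation the 2 ligands moved in opposite directions and the most abundant binding proteins fell. A gene was called where its log2 fold change was above 1 or below -1 with an adjusted p (Benjamini-Hochberg) under 0.01, from limma on log2(CPM + 1), where CPM is the gene's reads scaled to a fixed library total. Igfbp3 was too low to test, which left 9 members. At day 14 against day 1, 5 of the 9 were called, Igf2 higher and Igf1, Igfbp4, Igfbp5 and Igfbp7 lower, where 13.4% of all 12725 genes tested were called. The median log2 fold change was -0.38 over the members and -0.03 over all genes. At day 7 against day 1, 6 were called (9.11% of all genes), with Igfbp2 the additional one, and at day 10 against day 1, 4 were called (10.5% of all genes). All 3 comparisons share the day 1 libraries. Between neighbouring days from day 7 on, Igfbp2 was the member called, at day 10 against day 7 (2.22% of all genes) and at day 14 against day 10 (2.96% of all genes). The sources used here do not say how the 2 libraries of a day were collected, so a day and a collection cannot be told apart.

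**Figure D1:**
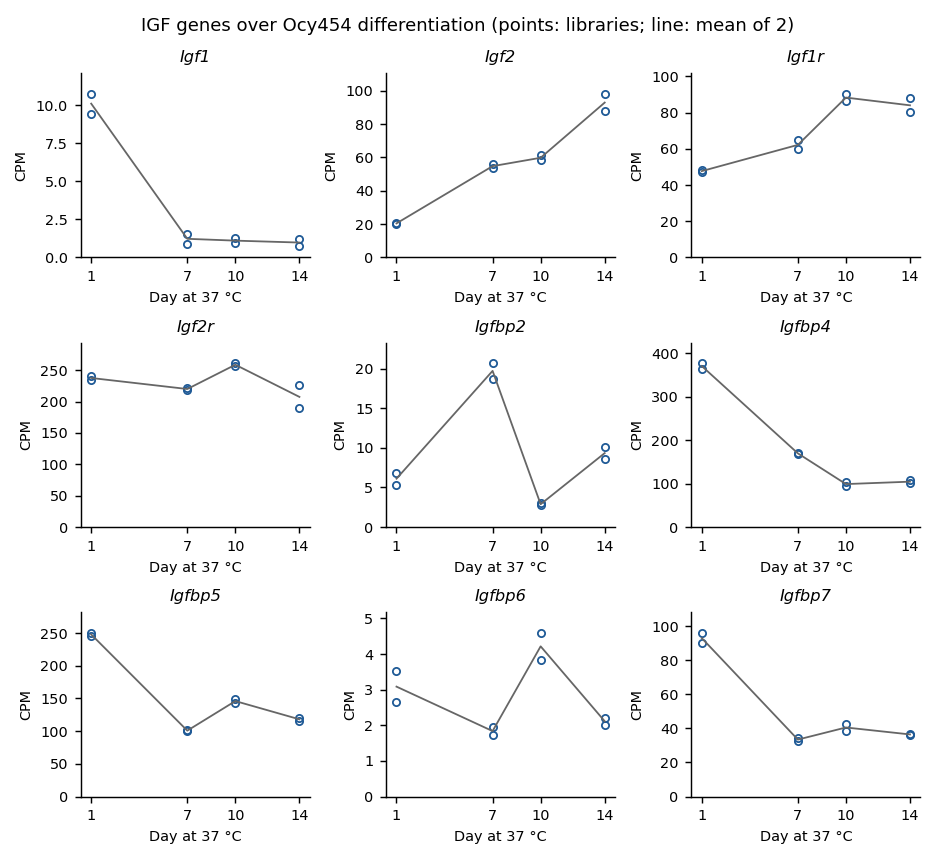
CPM (y axes, each from 0) of the 9 detected IGF genes against days at 37 °C (x axes). Each circle is 1 library and the lines join the means of 2 libraries. Igf2 climbs from 19.9 and 21.0 CPM to 87.6 and 98.2 CPM while Igf1 drops to 1.55 CPM or less from day 7 on, and Igfbp2 is high at day 7 and low at day 10.

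Igf1, the ligand that mediates much of growth hormone action, was at 10.7 and 9.44 CPM on day 1. It was at 0.900 and 1.55 CPM on day 7, 0.952 and 1.26 CPM on day 10 and 1.19 and 0.763 CPM on day 14. No library from day 7 on reached a day 1 library, and the later days overlap one another. These values rest on 364 and 301 reads on day 1 and on 21 to 44 reads afterwards. The mean ratio of day 1 to day 14 was 10.3, and on the log2(CPM + 1) scale, which shrinks the change of a low gene, Igf1 fell by 2.49 (SE 0.15, adjusted p = 7.4e-14). Later days differed by -0.07 (day 10 against day 7, adjusted p = 0.72) and -0.09 (day 14 against day 10, adjusted p = 0.61).

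Igf2, the ligand best known from fetal growth, was at 19.9 and 21.0 CPM on day 1 and at 53.5 and 56.0 CPM on day 7. It was at 58.4 and 61.1 CPM on day 10 and at 87.6 and 98.2 CPM on day 14. The libraries of each day lie above all those of the day before. Igf2 rose by 2.13 on day 14 against day 1 (SE 0.06, adjusted p = 8.9e-22), 4.54-fold in mean CPM. The step from day 10 to day 14 was 0.63 (SE 0.06, adjusted p = 5.6e-10), under the fold threshold. Per kilobase of the deposited exon length, the ratio of Igf2 to Igf1 was 2.29 and 2.75 in the day 1 libraries and 90.6 and 159.2 in the day 14 libraries. With main transcript lengths in place of the deposited ones, the ratios were 3.53 and 4.22 on day 1 and 139.3 and 244.7 on day 14. The day 14 ratios rest on 41 and 21 Igf1 reads and carry that uncertainty.

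Igf1r, the signalling receptor, was at 48.2 and 47.1 CPM on day 1, 64.6 and 59.7 CPM on day 7, 90.4 and 86.2 CPM on day 10 and 88.0 and 80.1 CPM on day 14. Days 1, 7 and 10 do not overlap, and day 14 overlaps day 10. The difference at day 14 was 0.80 (SE 0.05, adjusted p = 2.3e-13), 1.76-fold in mean CPM and under the fold threshold for a call. Igf2r, the clearance receptor, ranged from 189.1 to 261.3 CPM over all 8 libraries, with both day 10 libraries the highest and a day 14 library the lowest. Its day 14 difference was -0.20 (SE 0.05, adjusted p = 9.9e-04).

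The binding proteins fell into those that were lower from day 7 on and those that swung between days. Igfbp4, which binds IGFs and restrains their action in culture, was at 377.1 and 364.3 CPM on day 1, 168.5 and 170.7 CPM on day 7, 103.9 and 93.8 CPM on day 10 and 100.9 and 107.9 CPM on day 14. Days 10 and 14 overlap and both lie below day 7, which lies below day 1. Igfbp4 fell by 1.82 on day 14 against day 1 (SE 0.04, adjusted p = 1.5e-22), and its day 1 mean was 3.55 times that of day 14.

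Igfbp5, a binding protein abundant in bone matrix, was at 245.4 and 250.5 CPM on day 1, 101.5 and 100.1 CPM on day 7, 149.3 and 142.7 CPM on day 10 and 119.9 and 116.3 CPM on day 14. All later libraries lie below day 1, with the lowest at day 7. The differences from day 1 were -1.29, -0.76 and -1.06 at days 7, 10 and 14 (SE 0.04 each), so the gene was called at days 7 and 14 and not at day 10. Igfbp7, which binds insulin-like growth factors weakly, was at 89.9 and 96.2 CPM on day 1 and between 32.7 and 42.4 CPM in the 6 later libraries. It was called lower at every later day, and at day 14 it fell by 1.33 (SE 0.06, adjusted p = 2.4e-17).

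Igfbp2, a binding protein with effects on both osteoblasts and osteoclasts, had the largest swings of the binding proteins. It was at 5.34 and 6.87 CPM on day 1, 20.7 and 18.8 CPM on day 7, 2.73 and 3.03 CPM on day 10 and 8.54 and 10.1 CPM on day 14. No 2 days overlap, with day 7 the highest and day 10 the lowest. Igfbp2 rose by 1.55 from day 1 to day 7 (SE 0.11, adjusted p = 4.8e-12), fell by 2.42 from day 7 to day 10 (SE 0.11, adjusted p = 2.5e-15) and rose by 1.41 from day 10 to day 14 (SE 0.11, adjusted p = 6.3e-11). Day 14 differed from day 1 by 0.55 (SE 0.11, adjusted p = 1.2e-04), which was not called. Its neighbour on chromosome 1, Igfbp5, was lowest at day 7, where Igfbp2 was highest.

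Igfbp6, which prefers IGF2, was scarce, at 2.66 and 3.51 CPM on day 1, 1.95 and 1.72 on day 7, 4.60 and 3.84 on day 10 and 2.01 and 2.22 on day 14. Its libraries were highest at day 10, the day when those of Igfbp2 were lowest. The difference of day 10 from day 7 was 0.88 (SE 0.14, adjusted p = 4.6e-06), under the fold threshold. With a pseudocount of 0.1 CPM it was 1.15 and with edgeR on recovered reads 1.12, and both would be called. Igfbp3, the main carrier in serum, had 3 reads in day 1 replicate 1 and 0 in the other 7 libraries, where 0 reads allow at most 0.0138 CPM over their 216946516 reads together.

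Per length, the binding protein transcripts shrank as a pool while their order changed. Summed CPM per kilobase of the 6 genes were 191.9 ± 3.14 on day 1, 88.5 ± 0.253 on day 7, 76.4 ± 0.360 on day 10 and 72.9 ± 1.33 on day 14 (SD, n = 2 each). At day 1 Igfbp4 led with 82.5 ± 2.02, then Igfbp7 with 77.1 ± 3.66 and Igfbp5 with 26.2 ± 0.383 CPM per kilobase. At day 14 Igfbp7 led with 30.2 ± 0.250, then Igfbp4 with 23.2 ± 1.11 and Igfbp5 with 12.5 ± 0.273 CPM per kilobase. The share of Igfbp4 in the sum was 43.0% ± 1.76 on day 1 and 31.9% ± 0.941 on day 14, and that of Igfbp2 was 1.72% ± 0.277 on day 1, 12.1% ± 0.873 on day 7 and 2.04% ± 0.163 on day 10 (SD, n = 2 each).

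Over all members the order at day 14 was Igfbp7, Igfbp4, Igf2r, Igf1r, Igfbp5, Igf2, Igfbp2, Igfbp6 and Igf1. Of these neighbours only Igfbp4 and Igf2r overlapped between libraries. This order depends on the length used. The deposited length of Igf1r is 4468 bases and its main transcript has 11409, and for Igf2 the lengths are 7999 and 3708. With main transcript lengths, the day 14 level of Igf1r was 7.36 CPM per kilobase in place of 18.8, that of Igf2 was 25.0 in place of 11.6 and that of Igfbp5 was 19.7 in place of 12.5. Igfbp7 still led, and Igf2 then overlapped both Igfbp4 and Igf2r between libraries.

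**Figure D2:**
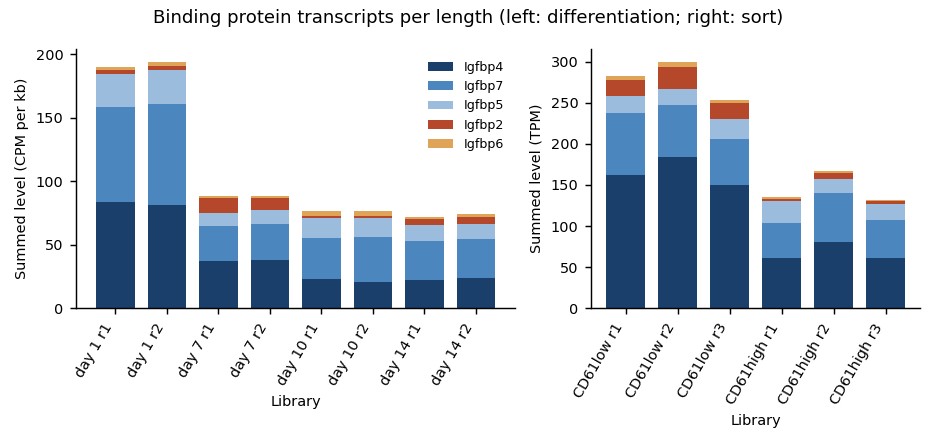
Levels of 5 binding protein genes stacked for each library (x axes), in CPM per kilobase of deposited exon length for differentiation (left) and TPM for the sort (right). The 2 scales are not comparable. The stacks of day 1 have a mean of 191.9 CPM per kilobase and those of day 14 a mean of 72.9, and the CD61low stacks lie above all CD61high stacks.

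In the sort, Igfbp2 was lower in CD61high cells, while Igf1r lay higher and Igfbp4 lower in every CD61high library without passing the fold threshold. Counts were tested with edgeR after TMM scaling, which corrects for differences in library make-up, with the same thresholds for a call. Of the 8 members tested, 1 was called, Igfbp2, lower in CD61high cells, where 9.22% of all 12077 genes tested were called. The median log2 fold change was -0.03 over the 8 members and 0.00352 over all genes. Igf1 and Igfbp3 did not pass the filter, which asks for at least 5 normalized counts in all 6 libraries. Scaling by library size alone would move the median of all genes to -0.30, with 24.2% of calls higher in CD61high in place of 52.6%, so all values here are relative to the TMM scaling.

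**Figure D3:**
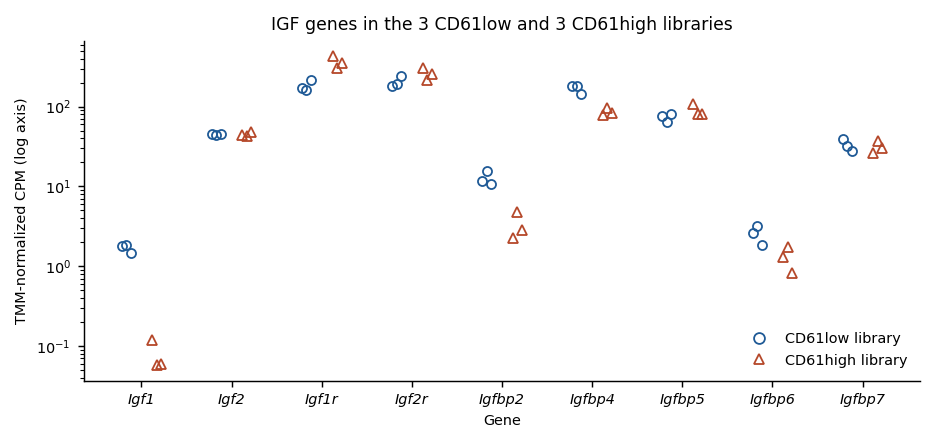
TMM-normalized CPM (log axis) of the 9 detected IGF genes in the sorted libraries. Each circle is a CD61low library and each triangle a CD61high library, in the order of the replicate numbers. Igf1, Igfbp2, Igfbp4 and Igfbp6 lie lower in all 3 CD61high libraries and Igf1r lies higher, while Igf2, Igf2r, Igfbp5 and Igfbp7 overlap on this scale. The share of all genes that lie apart in this way was not computed. At any fold change, 4275 of the 12077 genes tested in the sort passed the adjusted p threshold. Lying apart is therefore not read as a trait of these members.

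Igf1 had 38, 39 and 30 estimated counts in the CD61low libraries and 2, 1 and 1 in the CD61high libraries. The groups are far apart, at 1.46 to 1.83 against 0.0576 to 0.117 TMM-normalized CPM. Summed and scaled, 107 counts against 4 give a ratio of 21.9, with an exact 95% interval of 8.32 to 82.0 that covers counting error only. Without the filter on low counts, edgeR gave a log2 fold change of -4.34 (SE 0.58, adjusted p = 1.9e-05), and in that fit 7.4% of 17853 genes were called. The CD61high side rests on 4 counts, so the size is poorly known, and a filter that Igf1 passes admits it through its CD61low counts alone. Beside this, the macrophage marker Cd68 was at 12.2 to 15.3 in CD61low and 7.12 to 8.57 TMM-normalized CPM in CD61high libraries, and Adgre1 was at 0 in all 6. Csf1r (0.0478 to 0.141 and 0 to 0.412) and Lyz2 (0.342 to 0.431 and 0.176 to 0.647) overlapped between CD61low and CD61high libraries. Ptprc did not exceed 0.0488. Over time Cd68 differed by 0.71 at day 14 against day 1, where Igf1 was lower. The TPM ratio of Igf2 to Igf1 in CD61low cells was 16.2 ± 3.06 (SD, n = 3).

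Igf2 was at 45.1, 43.7 and 45.1 TMM-normalized CPM in CD61low and at 44.1, 42.7 and 48.5 in CD61high libraries. The groups overlap, and the difference was 0.02 (SE 0.08, adjusted p = 0.87). Under library size scaling it was -0.29 (adjusted p = 0.0078), not past the fold threshold. In TPM, which lacks the TMM correction, the CD61high libraries (24.0 to 24.4) lie just below the CD61low libraries (24.6 to 28.8), so the overlap depends on the scaling.

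Igf1r was at 170.7, 162.3 and 216.7 TMM-normalized CPM in CD61low and at 429.7, 302.1 and 356.6 in CD61high libraries. All CD61high libraries lie above all CD61low libraries. The difference was 0.99 (SE 0.14, adjusted p = 2.1e-04), 1.98-fold in the means and just under the fold threshold. It was 1.10 without CD61low replicate 3 and 1.10 without CD61high replicate 2, and was called in both cases. Under library size scaling Igf1r was not called. Before scaling it had 3460 to 4440 estimated counts in CD61low and 5248 to 7324 in CD61high libraries. Igf2r was at 182.7, 191.6 and 242.3 in CD61low and 309.5, 214.5 and 253.3 TMM-normalized CPM in CD61high libraries, which overlap. Its difference was 0.33 (SE 0.14, adjusted p = 0.068). For both receptors CD61low replicate 3 and CD61high replicate 1 are the highest of their groups, and over all genes these 2 libraries deviate from their group means together (r = 0.466 across genes, which are not independent replicates).

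Igfbp2 was at 11.6, 15.8 and 10.8 TMM-normalized CPM in CD61low and at 2.29, 4.78 and 2.82 in CD61high libraries. The groups do not overlap. Igfbp2 fell by 1.95 (SE 0.25, adjusted p = 1.3e-04), its CD61low mean being 3.87 times that of CD61high cells. Igfbp4 was at 182.1, 180.6 and 144.4 in CD61low and at 79.3, 95.9 and 83.8 TMM-normalized CPM in CD61high libraries, also without overlap. Its difference was -0.97 (SE 0.11, adjusted p = 4.0e-05), just under the fold threshold, and it was -1.09 without CD61low replicate 3, -1.05 without CD61high replicate 2 and -1.27 under library size scaling, each called.

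Igfbp6 was at 2.58, 3.19 and 1.86 in CD61low and at 1.29, 1.73 and 0.824 TMM-normalized CPM in CD61high libraries. The groups do not overlap, but the values rest on 14 to 68 counts and the difference of -0.99 (SE 0.32, adjusted p = 0.025) did not pass the threshold. Igfbp5 and Igfbp7 overlap between the groups, with differences of 0.27 (SE 0.13, adjusted p = 0.10) and -0.08 (SE 0.15, adjusted p = 0.70). Both were lower at day 14 than at day 1. Igfbp3 had 0 counts in all 6 libraries, which allows at most 0.0264 CPM over 113549466 counts.

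Per length, Igfbp4 led the family in both sorted groups, with 165.2 ± 17.5 TPM in CD61low and 67.7 ± 11.5 TPM in CD61high cells (SD, n = 3 each). TPM is scaled within a library to transcript length, without the TMM correction. In CD61low cells Igfbp7 (65.4 ± 9.40 TPM), Igf2r (44.8 ± 8.49) and Igf1r (29.6 ± 5.76) came next, the last overlapping Igf2 (26.1 ± 2.30) in its libraries. In CD61high cells Igfbp7 (49.5 ± 8.38), Igf1r (47.3 ± 9.91) and Igf2r (45.5 ± 9.99) overlapped in their libraries and could not be ordered. The summed binding proteins were 278.8 ± 23.7 TPM in CD61low and 144.7 ± 19.3 TPM in CD61high cells (SD, n = 3 each).

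**Figure D4:**
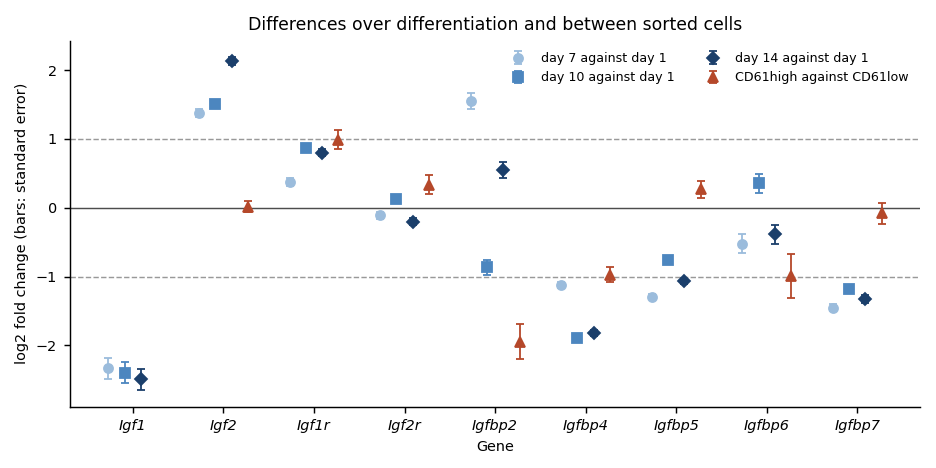
Log2 fold changes (y axis) with standard errors for each tested IGF gene, at days 7, 10 and 14 against day 1 (limma) and in CD61high against CD61low cells (edgeR). Standard errors of the sort were derived from the F statistic of the test. Dashed lines mark 1 and -1. Igf2 is high over time and near 0 in the sort, Igfbp4 is negative in both, and Igfbp2 is positive at days 7 and 14 and negative at day 10 and in the sort. Igf1 has no value for the sort because it did not pass the filter.

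Side by side, Igf1r had positive differences in both experiments (0.80 on day 14, 0.99 in the sort) and Igfbp4 negative ones (-1.82 and -0.97). Igf2 (2.13 and 0.02), Igfbp5 (-1.06 and 0.27) and Igfbp7 (-1.33 and -0.08) were called over time and not in the sort, and Igfbp2 was called in the sort (-1.95) and not at day 14 (0.55). Whether the 2 experiments differ was not tested, because they were normalized separately. None of the 8 members tested in both experiments was called both at day 14 against day 1 (13.4% of all genes) and in the sort (9.22%). The share of all genes called in both was not computed, so this count is not read as a trait of the members. Igf1, called lower at day 14 (-2.49), was not tested in the sort except without the filter or with a looser one.

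Other genes of the pathway were read in 9 lists of 57 genes. At day 14 against day 1, 7 of the 47 tested were called (14.9%, with 13.4% over all genes), 2 higher and 5 lower. In the sort 4 of 45 were called (8.89%, with 9.22% over all genes), 2 in each direction. These shares lie near those of all genes.

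Among proteases of the binding proteins and their inhibitors, 2 of 5 were called at day 14, both lower. Pappa, whose product PAPP-A cuts IGFBP4 and IGFBP5, was at 39.9 and 39.5 CPM on day 1 and at 4.66 and 5.34 CPM on day 14, and fell by 2.76 (SE 0.10, adjusted p = 6.8e-19). Pappa2, whose product cuts IGFBP3 and IGFBP5, was at 63.9 and 68.6 CPM on day 1, 6.67 and 6.83 CPM on day 10 and 13.5 and 21.0 CPM on day 14. It fell by 1.91 on day 14 against day 1 (SE 0.11, adjusted p = 3.9e-14). In the sort Pappa2 was the 1 of 5 called, at 8.28 to 10.3 in CD61low and 4.03 to 5.28 TMM-normalized CPM in CD61high libraries. Its sort difference was -1.02 (SE 0.16, adjusted p = 4.9e-04), and between -0.92 and -0.99 without CD61low replicate 2, CD61low replicate 3 or CD61high replicate 2, which ended the call. Pappa in the sort was 6.35 CPM or less in every library, with overlapping groups.

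Stc2, Htra1 and Stc1 were named after their values were seen. Stc2, whose product inhibits PAPP-A, was at 9.03 and 10.4 CPM on day 1, 20.6 and 21.7 on day 7, 9.49 and 7.90 on day 10 and 16.9 and 20.9 on day 14. It was thus high on the days when Igfbp2 was high, at days 7 and 14. It was called at day 7 against day 1 (1.05), day 10 against day 7 (-1.20) and day 14 against day 10 (1.04), but the first was 0.96 without day 1 replicate 1 and the last 0.89 without day 14 replicate 2 and 0.92 without day 10 replicate 2, none of them called. Htra1, a serine protease that cuts IGFBP5 among other substrates, was lowest at day 10, at 89.0 and 88.8 CPM against 182.0 and 188.6 CPM on day 1 (log2 fold change -1.05, adjusted p = 3.1e-18). At day 14 against day 1 Stc2 differed by 0.89, not called, and by 1.04 without day 14 replicate 1, called. In the sort Stc2 differed by -0.76 (adjusted p = 2.7e-04) and Htra1 by -0.03 (adjusted p = 0.74). Neither was called, but Stc2 was -1.06 and called under library size scaling. Stc1, a second stanniocalcin gene, was scarce, at 0.335 to 0.422 in CD61low and 0.882 to 0.939 TMM-normalized CPM in CD61high libraries, without overlap, and its difference of 1.24 (SE 0.33, adjusted p = 0.011) was not called.

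**Figure D5:**
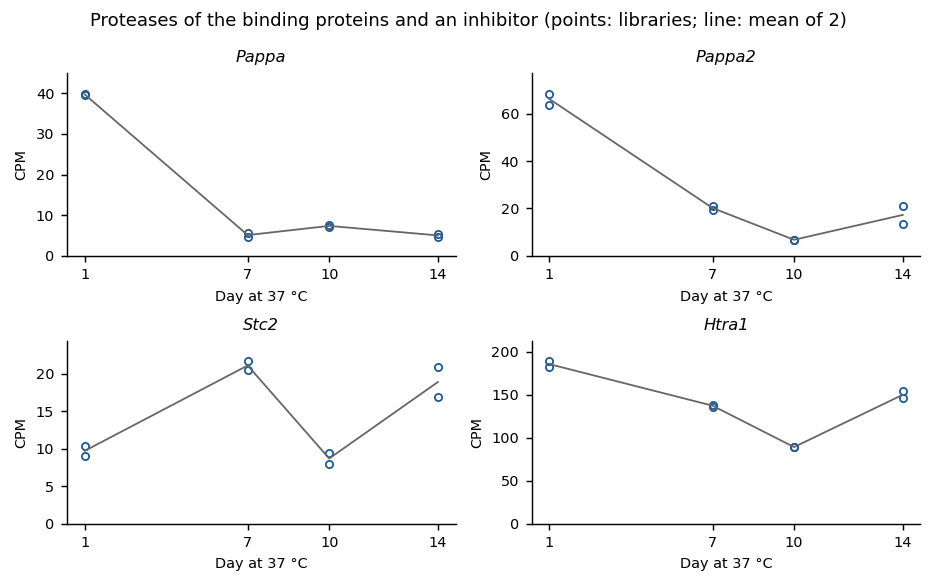
CPM (y axes, each from 0) of Pappa, Pappa2, Stc2 and Htra1 against days at 37 °C (x axes), with 1 circle per library and lines through the means of 2 libraries. Pappa stays at or under 7.67 CPM after day 1, while Pappa2 and Htra1 are lowest at day 10 and Stc2 is low at days 1 and 10.

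Of 18 genes for PI3K, AKT, FOXO and mTOR, downstream of the receptors, 1 was called at day 14 and 2 in the sort. Foxo1, a transcription factor that AKT keeps out of the nucleus, was higher in both, by 1.68 (SE 0.05, adjusted p = 1.2e-21) at day 14 and 1.42 (SE 0.08, adjusted p = 7.4e-07) in the sort. Its CPM went from 62.6 and 60.3 on day 1 to 206.1 and 191.7 on day 14. Pik3r1, a regulatory subunit of PI3K, was at 38.3 to 45.4 in CD61low and 15.5 to 16.8 TMM-normalized CPM in CD61high libraries, a difference of -1.37 (SE 0.10, adjusted p = 1.9e-06). At day 14 it was -0.99 (SE 0.05), just under the fold threshold. It was -1.01 with a pseudocount of 0.1 CPM, -1.03 without day 1 replicate 2 and -1.03 without day 14 replicate 1, each called.

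Of 8 adaptors and feedback genes, 7 were tested, none was called at day 14 and 1 was called in the sort. Grb10, an imprinted adaptor that dampens insulin and IGF receptor signalling, was at 197.8, 212.1 and 240.4 in CD61low and at 602.4, 524.0 and 572.5 TMM-normalized CPM in CD61high libraries. It rose by 1.39 (SE 0.09, adjusted p = 1.2e-06), and at day 14 it differed by 0.48 from day 1. Insr, the insulin receptor, differed by 0.64 on day 14 and by 0.47 in the sort, neither called, and Insrr was not tested. Of 5 growth hormone genes, Jak2, the kinase of the growth hormone receptor, was the 1 called at day 14 (1.36, SE 0.04, adjusted p = 5.5e-22), and none was called in the sort, where Jak2 differed by 0.79.

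Of 4 genes of the mannose 6-phosphate pathway, Gnptab, which makes the tag that IGF2R binds, was the 1 called at day 14 (-1.25, SE 0.07, adjusted p = 1.6e-14). None was called in the sort, where M6pr, the smaller mannose 6-phosphate receptor, differed by 0.38. None of the 3 IGF2 mRNA-binding proteins was called in either, with day 14 differences of -0.83 for Igf2bp1, 0.61 for Igf2bp2 and -0.64 for Igf2bp3 and sort differences of -0.16, 0.21 and 0.05. Of 9 imprinted growth genes, 4 were tested over time, and Mest (-1.81, adjusted p = 1.7e-13) and Dlk1 (-1.07, adjusted p = 1.7e-08) were called lower at day 14, the latter at -0.99 without day 1 replicate 1. H19, the imprinted neighbour of Igf2, did not exceed 0.176 CPM in any differentiation library. In the sort 2 of the 9 were tested and none called. The differences were 0.82 for Dlk1 (SE 0.24, adjusted p = 0.017), opposite in sign to day 14, and 0.71 for Plagl1. The 3 other carriers were not tested, with Igfbp1 at 0 reads in all 14 libraries and Igfals at 0.565 CPM or less over time. In the sort Igfals had 2, 1 and 3 estimated counts in CD61low and 14, 14 and 6 in CD61high libraries, without overlap and too few to test under the filter.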

How the data were processed

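PolyA RNA of Ocy454 cells was sequenced in 14 libraries. For differentiation, the authors used STAR for mapping and HTSeq-count for counting, and the deposited table gives CPM per gene beside a gene length. The build in the submitters' processing notes is GRCm39. Of these values, at least 99.992% per library were whole numbers of reads to within 0.01, which recovered the reads. For the sort, the authors ran Salmon on the GRCm39 transcriptome and deposited estimated counts, not normalized, and TPM per transcript. Whether reads were counted by strand is not given in the sources used here, so reads from Igfbp7 and Polr2b, which overlap at their ends, or Igf2r and Airn cannot be told apart for certain.

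For CPM, limma 3.58.1 was run on log2(CPM + 1) with all 8 libraries sharing 1 spread (trended eBayes) for genes above 1 CPM in at least 1 library. Estimated counts were summed per gene with GENCODE M39, which matched 115556 of 116747 transcripts and 99.3% to 99.4% of counts, rounded, scaled by TMM over all genes and tested with edgeR 4.0.16 (quasi-likelihood) where each of the 6 libraries had 5 or more normalized counts. For edgeR, the SE given is the absolute log2 fold change divided by the square root of the F statistic of the test. P-values were adjusted over all genes tested. Code was tested on simulated data. Alternatives were other scalings, filters and pseudocounts, DESeq2 1.42.0, edgeR on recovered reads, a transcript length offset, leaving out single libraries and blocking on the replicate number (R 4.3.3). After the data were seen, main transcript lengths were added for levels per length and the Igf2 to Igf1 ratio. Figures were drawn with matplotlib 3.10.9. The methods call the differentiation replicates biological duplicates and the sorted ones independent groups of cells. The members and lists were chosen with earlier results of these data known. Members are named throughout. For each list, up to 3 called genes with the largest change are named, or else the most abundant one, and genes of the lists or markers named beyond that were chosen after their values were seen. Genes most like a member were to be named for members called at both day 14 and the sort, and no member met that. Values of 0 allow up to 3 counts, 0.0874 to 0.109 CPM in single differentiation libraries, a limit for counting error only. The CRISPR interference screen and other assays of the study were not analysed here.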

Additional observations from a re-analysis of the deposited data

How the results depend on the processing

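Under the alternatives for normalization, filter, pseudocount, tool and libraries left out, 800 of 822 values for the members kept their direction and their side of the threshold. Where a value was obtained, no called member lost its call or turned, 11 uncalled values were called and 11 uncalled values changed sign. Igf1 and Igfbp6 lay under the alternative filter on a mean of 5 CPM. They were not tested there, so the calls of Igf1 over time have no value under that filter. The members called at day 10 against day 7 were 1, and 2 with a pseudocount of 0.1 CPM or edgeR on recovered reads (Igfbp6 added). In the sort the 1 called became 3 under library size alone (Igfbp4 and Igfbp6 added, both lower, where the calls over all genes went from 585 higher and 528 lower to 314 and 981) and 2 with no filter on low counts or filterByExpr (Igf1 added, -4.34 in each, admitted by its CD61low counts). Leaving out 1 library at a time, the number called was 6 at day 7 against day 1, 4 to 5 at day 10 against day 1, 5 at day 14 against day 1, 1 at both later steps and 1 to 3 in the sort. Igfbp2 at day 10 against day 1 (-0.87) was called at -1.05 with a pseudocount of 0.1 CPM, at -1.11 with edgeR on recovered reads and at -1.02 without day 1 replicate 1.

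Library size alone moved the median of all genes in the sort from 0.00352 to -0.30. It moved Igf2, Igfbp5 and Igf2bp2, whose signs turned, and Igfbp4, Igfbp6 and Stc2, which were then called, by about as much. In the sort, Igf2 was -0.29 under library size alone, -0.00036 with TMM after the filter and between -0.046 and 0.055 with a library left out, Igfbp5 was -0.034 under library size alone, Igfbp7 was between -0.23 and 0.059 with a library left out and Igf2bp2 was -0.090 under library size alone. With a library left out, Igf1 lay between -0.28 and 0.14 at day 10 against day 7 and between -0.25 and 0.064 at day 14 against day 10. The cause was not tested.

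EdgeR on recovered reads called 1334 genes higher and 956 lower at day 14 against day 1, and 332 higher and 216 lower at day 10 against day 7, where limma called 182 and 100. At day 14 against day 10 it called 502 and 227, where limma called 266 and 111. The pseudocount of 0.1 CPM gave 377 and 175, and 425 and 246, for these later steps. For day 10 against day 7, the share of calls that were higher was 64.5%, and 53.3% with TMM scaling and 49.8% with quantile normalization.

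A fit with a replicate block called 6, 4, 5, 1 and 1 members over time and 1 in the sort, as without it. The methods describe 3 groups of cells from which both gates were collected, but the sources used here do not say that a number marks the same group, and pairing by number was not shown. Deviations of same-numbered libraries correlated at -0.321, 0.22 and -0.0614 in the sort and between -0.0253 and 0.0611 over time. With 2 libraries per day, the spread is borrowed from all days, and Igf1 after day 1, Igfbp6 and Igf1 in CD61high cells are limited by few reads.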
